A study of Mus musculus with 30 samples.

Results

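The 37 genes described here are 21 genes of glucose uptake, glycolysis and lactate or pyruvate handling and 16 genes of the cellular response to low oxygen, out of 35973 gene names in the deposited expression table. They were taken by name, with earlier results of these data known, and all 37 were found in both expression tables. Shares of members set beside those of all genes below are therefore descriptions of this list. The cells were primary fibroblasts from mouse tail tendon, labelled wildtype in every group. RNA was sequenced from 3 libraries each of cells given the solvent DMSO, blebbistatin at 10 µM, which blocks the motor activity of myosin II, or Y27632 at 30 µM, a small-molecule kinase inhibitor. All cells were treated in medium with 0.1% serum, so the control cells were in low serum too. Chromatin sites came from 9 ATAC libraries with the same 3 treatments and from 12 libraries of an experiment with doxycycline. Those 12 had neither drug, blebbistatin alone, doxycycline at 10 ng/mL alone, or both, with 3 libraries per group. The labels do not state what doxycycline induces in these cells, how long any treatment lasted, the oxygen level, or the age and strain of the mice. They do not say either whether replicates were separate cultures or animals, so the p-values measure the spread between these libraries, which may be technical.

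Glycolysis turns glucose into pyruvate, and cells that export the product as lactate can make ATP without oxygen. Hypoxia-inducible factors (HIFs) pair an oxygen-sensitive alpha subunit, Hif1a or Epas1, with the constant partner Arnt, and raise transcription of glycolytic and angiogenic genes. When oxygen is present, prolyl hydroxylases of the Egln family mark the alpha subunits for destruction through Vhl, so much of the control acts on protein rather than on RNA. Tendon is a sparsely vascularised tissue, and its fibroblasts use some HIF-induced enzymes, such as the collagen prolyl hydroxylases P4ha1 and P4ha2, to build matrix.

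Libraries held 23375386 to 37061737 reads in genes, and every member had at least 21 reads in every library. Replicates of most members lay close together. The median coefficient of variation over the 37 members was 3.18% in DMSO, 2.92% with blebbistatin and 2.19% with Y27632. Ankrd37, a gene of few reads, had a mean of 42.4 and an SD of 9.54 in DMSO, and with Y27632 the highest coefficient of variation was 18.5%, for Egln3. Gapdh, the glyceraldehyde phosphate dehydrogenase gene, spread most in the other groups. It had 43 to 262 reads per library and a coefficient of variation of 64.2% in DMSO and 95.6% with blebbistatin. The mouse genome holds many near-identical copies of Gapdh, and how reads shared by copies were counted is not given in the sources used here, so its values are uncertain. Most fibroblast markers were abundant, and of 12 tested 5 rose and 3 fell with blebbistatin and 7 rose and 1 fell with Y27632. Of 6 macrophage and leukocyte markers, the 5 that could be tested rose with both inhibitors, with summed normalised counts of 1634 to 1841 in DMSO and 2314 to 2683 with blebbistatin, and 1696 to 1914 and 2332 to 2732 in the table with Y27632. That sum was at most 0.309% of the fibroblast sum and Cd3e was at 0. Most of the fibroblast sum came from Col1a1, Col1a2 and Col3a1, so this percentage is not a share of cells. In DMSO the fibroblast markers had means from 63.9 (Scx) to 284615 (Col1a1), and Cd68 had 553. Summed Schwann cell markers (4 genes) ran from 194 to 240.3 in DMSO and 353 to 383 with blebbistatin, where 2 of 3 tested rose, and chondrocyte markers (4 genes) from 137 to 166 and 211 to 229, where 1 of 2 rose. Endothelial markers (6 genes) ran from 3196 to 3279 and 2071 to 2332, where 1 of 4 tested rose and 1, Tek, fell. Tek made up most of that sum, with means of 3110 in DMSO and 2014 with blebbistatin, so the lower sum is that of 1 gene. Vwf rose (log2 change 0.68), and Kdr (0.60) and Cdh5 (0.30) were higher but did not pass. The part of these shifts in the results on the 37 genes was not tested. In RNA from whole cultures, fewer cells of a type and less RNA per cell cannot be told apart.

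Blebbistatin moved most of the genes, in both directions. Of 37 members tested with limma, 26 passed an adjusted p of 0.05, 9 higher and 17 lower than DMSO, which is 70.3% of them beside 53% of all 14882 genes tested. The share called lower was the one that stood further from all genes, where 26.9% were lower and 26.1% higher. With Y27632, 18 members passed, 3 higher and 15 lower, which is 48.6% beside 35.9% of 14833 genes, of which 17.8% were lower and 18.1% higher. Among genes with a mean of at least 50, 7313 of 12395 passed with blebbistatin and 5089 of 12368 with Y27632. Those are larger shares than over all genes tested, and the part of abundance in the members' shares was not tested. The median log2 change of the members was -0.11 with blebbistatin and -0.068 with Y27632, while the medians of all genes were 0.0021 and 0.0040. The blebbistatin median was -0.16 without blebbistatin replicate 3. Both comparisons used the same 3 DMSO libraries, so they are given side by side and not as independent results. Without overlap between libraries of the compared groups were 27 members with blebbistatin, beside 60.2% of all genes, and 22 with Y27632, beside 48.1%. Changes of at least 0.5 on the log2 scale were no more frequent than among all genes with blebbistatin, where 6 of 37 members passed with such a change beside 19.3% of all genes, and 4 of 37 did with Y27632 beside 8.32%. Log2 changes ran from -0.70 to 0.53 for blebbistatin and from -0.86 to 0.67 for Y27632, and 7 members passed under neither inhibitor.

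**Figure D1:**
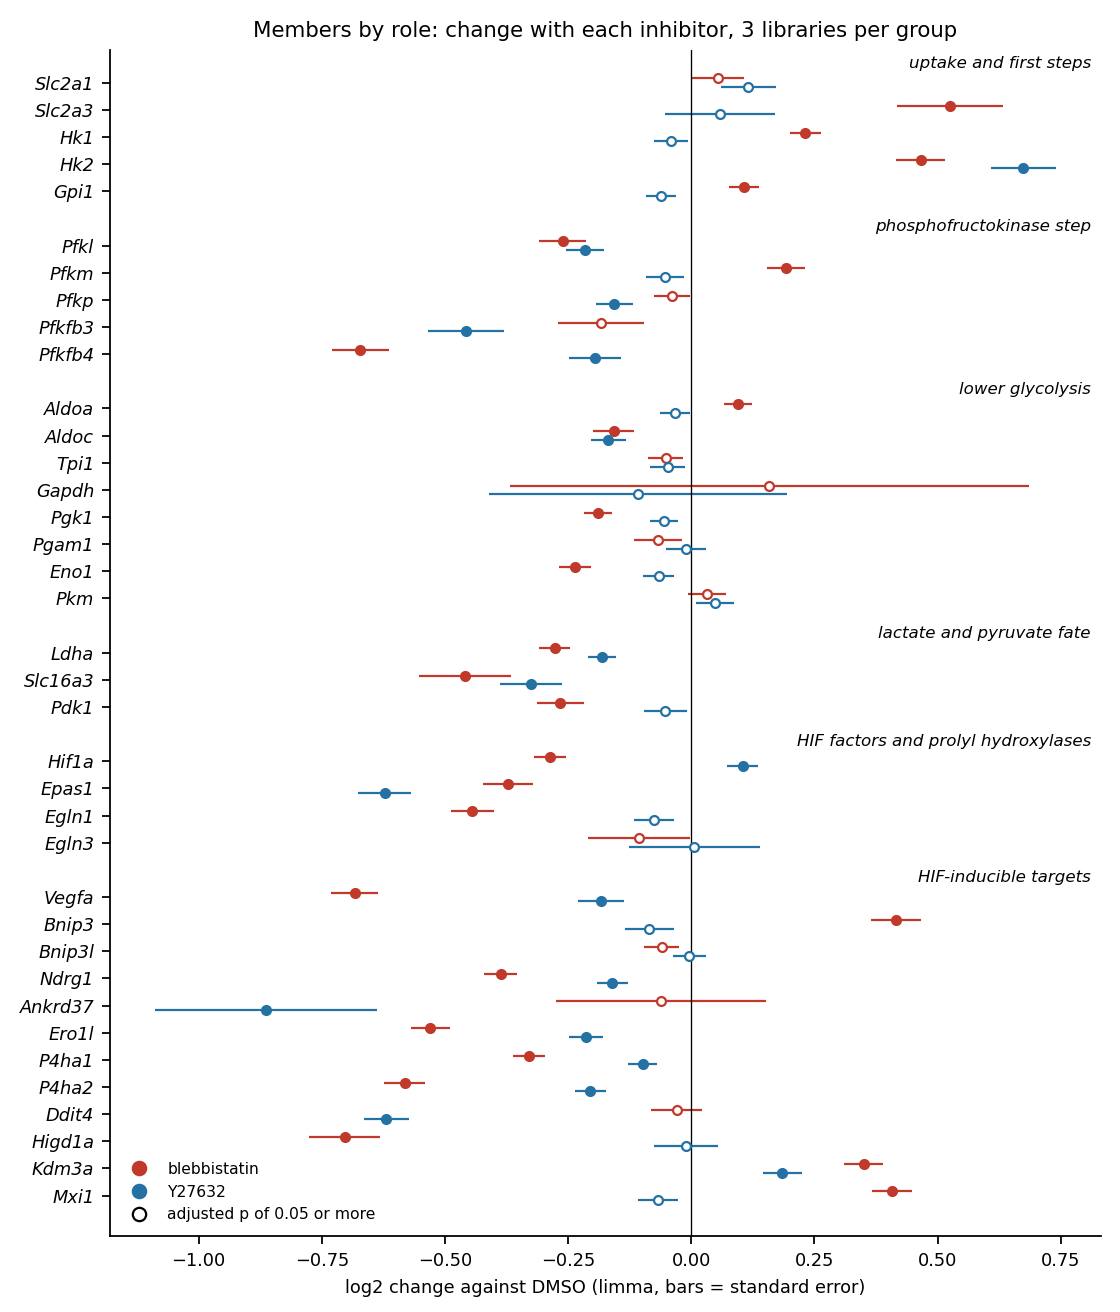
Log2 change against DMSO (horizontal axis) of the 37 members, grouped by role, with blebbistatin in red and Y27632 in blue; points are limma estimates from 3 libraries per group, bars are standard errors, and open points have an adjusted p of 0.05 or more. The sugar-uptake and first-step genes lie at or above 0 with blebbistatin, while the lactate and pyruvate genes and the HIF factors and hydroxylases lie below it.

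By role the counts were as follows, with no test between roles. At uptake and the first steps, 4 of 5 members rose with blebbistatin and none fell. At the phosphofructokinase step 1 of 5 rose and 2 fell, in lower glycolysis 1 of 8 rose and 3 fell, and of the 3 genes for lactate and pyruvate fate all 3 fell. The 4 HIF factors and hydroxylases gave 0 higher and 3 lower, and the 12 HIF-inducible targets 3 higher and 6 lower. With Y27632 the same 6 groups gave, in that order, 1 of 5, 0 of 5, 0 of 8, 0 of 3, 1 of 4 and 1 of 12 higher, and 0, 4, 1, 2, 1 and 7 lower. These counts are read against the shares of all genes given above.

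Promoter sequence is shown first because the members are grouped by a factor that binds a short DNA core. HIFs bind hypoxia response elements whose core is ACGTG or GCGTG. The 250 bases before each RefSeq transcription start (GRCm38.p6) were searched for these letters on both strands, and 33 of the 37 members had an entry, with 51 starts among them. Epas1, Ndrg1, Slc2a3 and Bnip3l were not in the table. At least 1 core lay before a start of 31 of 33 members (93.9%), beside 41.5% of 27025 genes, and the members without one were Gpi1 and Tpi1. Counted by promoter it was 40 of 51 (78.4%) beside 38.6% of 32851. A gene with more starts has more chances of a core, and the 33 members had 51 starts while the 27025 genes had 32851. The members were listed partly as HIF-inducible genes, so their share beside all genes describes the list and is no independent result. ACGTG alone was found in 63.6% of the member genes and 18.5% of all genes, and GCGTG in 69.7% and 30.9%. Member promoters were also richer in CpG, with a median of 14 CpG dinucleotides in 250 bases beside 6 over all promoters, and both cores contain a CpG; the part of base composition in the difference was not tested. The palindrome CACGTG, bound by other factors and overlapping ACGTG, was in 15.2% of member genes and 6.86% of all genes, and ACGTG outside that palindrome in 60.6% and 12.8%. GGAATG, the core bound by the TEAD partners of Yap and Taz, was in 9.09% of member genes and 14.4% of all genes.

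Cores lay before genes of every direction. A core was present in 15 of the 15 members with an entry that fell with blebbistatin, 7 of the 8 that rose, and 9 of the 10 that did not pass. A member counts here if any of its listed starts has a core, and several also have a start without one. Vegfa, counted among the 15 that fell, has 2 cores before 1 start (chr17:46025164-46025413) and 0 before its other start (chr17:46032378-46032627). It is on the minus strand, so the start without a core is the upstream one. The 2 cores lie downstream of that start, inside the gene, and are not sequence before the gene as a whole. Shown are 3 promoters of genes that fell with blebbistatin (Higd1a, P4ha2 and Ero1l), 1 of a gene that fell and has an authors' chromatin site over its start (Egln1), 2 of genes that rose (Bnip3 and Hk2) and 1 of a gene that passed in no comparison (Slc2a1). Each runs 5′ to 3′ on the strand of the gene and ends at the base before the start, with cores on either strand in capitals.
Higd1a, chr9:121857797-121858046, minus strand: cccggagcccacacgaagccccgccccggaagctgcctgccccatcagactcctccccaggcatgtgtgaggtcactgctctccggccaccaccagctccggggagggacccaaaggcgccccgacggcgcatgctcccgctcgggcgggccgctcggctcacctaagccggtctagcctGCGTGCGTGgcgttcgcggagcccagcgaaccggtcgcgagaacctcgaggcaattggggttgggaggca
P4ha2, chr11:54100674-54100923, plus strand: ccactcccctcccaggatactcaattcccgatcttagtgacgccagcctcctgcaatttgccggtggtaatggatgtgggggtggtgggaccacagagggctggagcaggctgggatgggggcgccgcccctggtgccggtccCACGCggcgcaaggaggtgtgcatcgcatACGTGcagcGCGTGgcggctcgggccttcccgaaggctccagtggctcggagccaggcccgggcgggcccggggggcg
Ero1l, chr14:45318573-45318822, minus strand: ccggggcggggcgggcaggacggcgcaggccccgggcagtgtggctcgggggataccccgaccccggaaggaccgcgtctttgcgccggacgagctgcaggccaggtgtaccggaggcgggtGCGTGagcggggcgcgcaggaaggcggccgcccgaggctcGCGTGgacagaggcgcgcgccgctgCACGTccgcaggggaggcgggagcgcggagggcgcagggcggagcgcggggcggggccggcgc
Egln1, chr8:124949255-124949504, minus strand: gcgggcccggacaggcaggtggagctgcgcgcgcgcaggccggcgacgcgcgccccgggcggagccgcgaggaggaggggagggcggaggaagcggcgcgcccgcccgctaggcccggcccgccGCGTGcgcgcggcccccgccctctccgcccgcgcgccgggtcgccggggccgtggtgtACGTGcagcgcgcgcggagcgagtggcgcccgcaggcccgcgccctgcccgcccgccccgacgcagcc
Bnip3, chr7:138909507-138909756, minus strand: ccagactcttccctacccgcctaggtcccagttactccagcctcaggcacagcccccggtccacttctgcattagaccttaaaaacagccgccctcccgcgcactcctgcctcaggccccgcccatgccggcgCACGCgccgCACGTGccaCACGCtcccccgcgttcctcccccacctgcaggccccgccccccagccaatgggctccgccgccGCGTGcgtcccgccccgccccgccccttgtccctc
Hk2, chr6:82774455-82774704, minus strand: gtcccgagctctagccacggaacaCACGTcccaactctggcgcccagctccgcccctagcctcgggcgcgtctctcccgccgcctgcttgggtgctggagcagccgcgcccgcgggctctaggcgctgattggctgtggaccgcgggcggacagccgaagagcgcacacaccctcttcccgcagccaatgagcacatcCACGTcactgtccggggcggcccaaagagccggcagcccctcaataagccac
Slc2a1, chr4:119108495-119108744, plus strand: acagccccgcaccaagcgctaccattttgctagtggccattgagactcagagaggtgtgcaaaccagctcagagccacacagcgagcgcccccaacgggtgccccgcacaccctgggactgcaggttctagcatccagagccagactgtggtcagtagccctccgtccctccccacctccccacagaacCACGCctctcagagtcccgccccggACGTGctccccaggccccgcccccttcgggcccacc
In Bnip3 the run of 6 capitals in the middle is the palindrome, which holds a core on each strand, and in Higd1a the run of 9 capitals is a pair of overlapping cores. P4ha2 and Ero1l each have 3 cores, and Higd1a, Egln1, Hk2 and Slc2a1 have 2 each. A match of letters describes the sequence and is no evidence that a factor binds there.

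**Figure D2:**
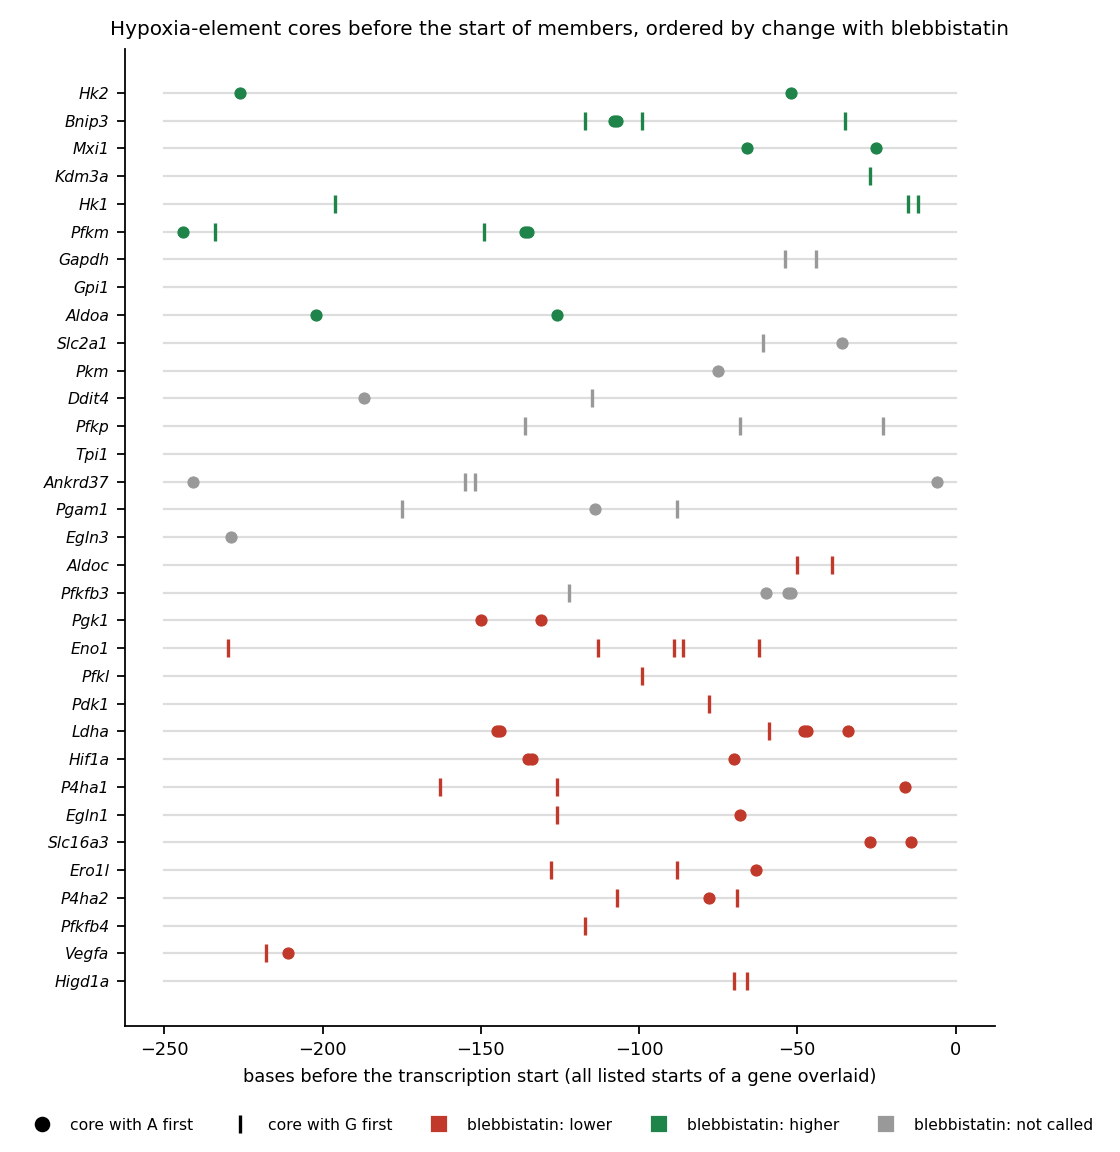
Position of hypoxia-element cores (horizontal axis, bases before the transcription start) for the 33 members with a promoter entry, ordered from the most raised (top) to the most lowered (bottom) with blebbistatin; circles are cores that begin with A and ticks those that begin with G, and colour gives the limma call. All listed starts of a gene are overlaid. Cores are found in genes of every colour, and only Gpi1 and Tpi1 show none at any start.

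Both HIF alpha subunits and the hydroxylase Egln1 fell with blebbistatin, and 1 of these genes, Hif1a, was called higher with Y27632. Hif1a encodes the alpha subunit that drives most glycolytic targets. Values per library of members are read counts scaled over the 9 libraries together, and log2 changes against DMSO are from each inhibitor's own table. Hif1a measured 13102, 13423 and 13796 in the DMSO libraries, 10965, 10812 and 11334 with blebbistatin and 14847, 14096 and 14442 with Y27632. All 3 blebbistatin libraries lay below all DMSO libraries, and all 3 Y27632 libraries lay above them. Hif1a fell with blebbistatin by 18%, a log2 change of -0.29 ± 0.033 (log2 change ± SE; limma adjusted p = 1.15e-05), and rose with Y27632 by 7.5%, a log2 change of 0.10 ± 0.031 (limma adjusted p = 0.0191). The call for Y27632 was small and was lost without DMSO replicate 1 (log2 change 0.087, adjusted p = 0.0704), DMSO replicate 2 (0.10, adjusted p = 0.0579), Y27632 replicate 1 (0.087, adjusted p = 0.0779) or Y27632 replicate 3 (0.10, adjusted p = 0.0548). The direct difference between the inhibitors was -0.38 ± 0.032 (edgeR adjusted p = 2.39e-07) and passed in every alternative run.

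Epas1 encodes HIF-2 alpha, the second subunit of this kind. It measured 904, 887 and 851 in the DMSO libraries, 664, 695 and 685 with blebbistatin and 551, 570.1 and 596 with Y27632. Both inhibitors gave values below every DMSO library, and Y27632 gave the lowest. The log2 changes were -0.37 ± 0.05 (limma adjusted p = 5.21e-05) with blebbistatin and -0.62 ± 0.053 (limma adjusted p = 1.72e-06) with Y27632, and blebbistatin stood above Y27632 by 0.27 ± 0.05 (edgeR adjusted p = 0.000462). The order of the inhibitors was thus opposite for these alpha subunits: Hif1a was lower with blebbistatin than with Y27632, and Epas1 was higher.

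Egln1, the main oxygen-sensing prolyl hydroxylase and itself a HIF target, measured 1519, 1431 and 1462 in the DMSO libraries, 1077, 1114 and 1055 with blebbistatin and 1412, 1363 and 1416 with Y27632. Blebbistatin stood apart below the other 6 libraries. The log2 change was -0.44 ± 0.043 (limma adjusted p = 2.92e-06) with blebbistatin and -0.075 ± 0.041 (limma adjusted p = 0.175) with Y27632, and the difference between them -0.36 ± 0.04 (edgeR adjusted p = 4.48e-06). Egln3, a hydroxylase that is strongly hypoxia-inducible in many cells, was low, with 105 to 190 reads per library, and passed in no comparison, with log2 changes of -0.11 ± 0.10 and 0.0064 ± 0.13.

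Of 7 further genes of the HIF system tested, 2 rose and 3 fell with blebbistatin, and 1 rose and 1 fell with Y27632. The shares called were 71.4% with blebbistatin, beside 53% of all genes, and 28.6% with Y27632, beside 35.9%. Arnt2 (log2 change -0.40) and P4htm (0.44), named after their values were seen, moved in opposite directions with blebbistatin, and Cited2 is given with the wider genes. Arnt, the shared HIF partner, had log2 changes of -0.073 ± 0.032 (limma adjusted p = 0.0764) and 0.072 ± 0.032 (limma adjusted p = 0.0943) and was lower with blebbistatin than with Y27632 by -0.13 ± 0.03 (edgeR adjusted p = 0.00201). Egln2, the third hydroxylase, rose with blebbistatin, 0.22 ± 0.044 (limma adjusted p = 0.00128), while Egln1 fell. Vhl, the ubiquitin ligase subunit that recognises hydroxylated HIF, fell slightly with blebbistatin, -0.15 ± 0.052 (limma adjusted p = 0.0346). That call was lost without any 1 of DMSO replicates 1, 2 and 3 and blebbistatin replicates 1 and 3, where the adjusted p ran from 0.0561 to 0.14, and by DESeq2 (adjusted p = 0.106). Hif1an, the asparaginyl hydroxylase that silences HIF activity, had -0.052 ± 0.041 (limma adjusted p = 0.309) with blebbistatin and rose with Y27632, 0.12 ± 0.039 (limma adjusted p = 0.0279), a call lost by DESeq2 (adjusted p = 0.0793) and without DMSO replicate 2 (adjusted p = 0.122), Y27632 replicate 1 (adjusted p = 0.0693) or Y27632 replicate 3 (adjusted p = 0.0827).

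Among the 12 HIF-inducible targets, 9 passed with blebbistatin and 8 with Y27632. The largest fall with blebbistatin was in Higd1a, which encodes a small mitochondrial protein of the respiratory chain. Higd1a measured 494, 553 and 521 in the DMSO libraries, 326, 336 and 301 with blebbistatin and 549, 494 and 514 with Y27632. The blebbistatin libraries did not reach the others, and the Y27632 libraries overlapped those of DMSO. The log2 change was -0.70 ± 0.072 (limma adjusted p = 4.41e-06) with blebbistatin and -0.011 ± 0.065 (limma adjusted p = 0.908) with Y27632, and the difference between them was -0.68 ± 0.068 (edgeR adjusted p = 1.26e-06).

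Vegfa, the main angiogenic growth factor under HIF control, measured 3439, 3346 and 3731 in the DMSO libraries, 2289.6, 2099 and 2168 with blebbistatin and 3247, 3120.4 and 2899.8 with Y27632. Every blebbistatin library was below every other library, and the Y27632 libraries lay between. Vegfa fell by 37.7% with blebbistatin, -0.68 ± 0.048 (limma adjusted p = 1.31e-07), and by 12% with Y27632, -0.18 ± 0.047 (limma adjusted p = 0.00818). The difference between the inhibitors was -0.49 ± 0.051 (edgeR adjusted p = 1.82e-06).

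The 3 enzymes of collagen and protein folding among the targets fell together. P4ha2 and P4ha1 are catalytic subunits of collagen prolyl 4-hydroxylase, and Ero1l oxidises disulphide isomerase in the endoplasmic reticulum. P4ha2 measured 4076, 4129 and 4054 in the DMSO libraries, 2846, 2815 and 2549 with blebbistatin and 3591, 3464 and 3591 with Y27632. Its 3 groups did not overlap, in the order DMSO, Y27632, blebbistatin from high to low. The log2 changes of P4ha2 were -0.58 ± 0.042 (limma adjusted p = 1.79e-07) with blebbistatin and -0.20 ± 0.032 (limma adjusted p = 0.00025) with Y27632. Ero1l measured 2282, 2312 and 2391 in the DMSO libraries, 1665, 1606 and 1574 with blebbistatin and 2019.9, 2029 and 1978 with Y27632, in the same order and again without overlap. Its log2 changes were -0.53 ± 0.039 (limma adjusted p = 2.24e-07) and -0.21 ± 0.035 (limma adjusted p = 0.0004). P4ha1 fell with blebbistatin, -0.33 ± 0.033 (limma adjusted p = 3.75e-06). Its change with Y27632 was -0.099 ± 0.03 (limma adjusted p = 0.021), a call lost without DMSO replicate 2 (adjusted p = 0.0682), DMSO replicate 3 (adjusted p = 0.065), Y27632 replicate 2 (adjusted p = 0.0535) or Y27632 replicate 3 (adjusted p = 0.0597). All 3 enzymes were lower with blebbistatin than with Y27632, by -0.36, -0.30 and -0.22 (edgeR adjusted p = 2.23e-06, 6.41e-06 and 2.78e-05). Ndrg1, a stress-responsive gene induced by hypoxia, showed that order too, with log2 changes of -0.39 ± 0.034 (limma adjusted p = 1.02e-06) and -0.16 ± 0.032 (limma adjusted p = 0.00154) and a difference of -0.21 ± 0.034 (edgeR adjusted p = 9.57e-05).

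The 3 targets that rose with blebbistatin were Bnip3, Mxi1 and Kdm3a. Bnip3 encodes a mitochondrial receptor for mitophagy, Mxi1 a Max partner that opposes Myc, and Kdm3a a histone H3K9 demethylase. Bnip3 measured 1149, 1181 and 1299 in the DMSO libraries, 1646, 1561 and 1634 with blebbistatin and 1158, 1151 and 1109.5 with Y27632. Blebbistatin was above all other libraries, and Y27632 overlapped DMSO. The log2 changes of Bnip3 were 0.42 ± 0.051 (limma adjusted p = 2.36e-05) and -0.086 ± 0.05 (limma adjusted p = 0.204), and the inhibitors differed by 0.51 ± 0.049 (edgeR adjusted p = 7.55e-07). Mxi1 measured 1272, 1218 and 1284 in the DMSO libraries, 1654, 1691 and 1667 with blebbistatin and 1187, 1212 and 1204 with Y27632, again with the blebbistatin libraries above the other 6. Its log2 changes were 0.41 ± 0.04 (limma adjusted p = 3.05e-06) with blebbistatin and -0.068 ± 0.041 (limma adjusted p = 0.224) with Y27632. Kdm3a rose with blebbistatin, 0.35 ± 0.04 (limma adjusted p = 1.11e-05), and less with Y27632, 0.18 ± 0.039 (limma adjusted p = 0.00269), with 3 groups that did not overlap. Bnip3l, the paralog of Bnip3 with a like role, passed in no comparison, with log2 changes of -0.06 ± 0.036 and -0.0041 ± 0.034.

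Ddit4 and Ankrd37 fell with Y27632 and did not pass with blebbistatin. Ddit4, also known as REDD1, is a stress-induced inhibitor of the growth kinase mTORC1. Ddit4 measured 1789, 1795 and 1978 in the DMSO libraries, 1781, 1947 and 1730.4 with blebbistatin and 1192, 1231 and 1197 with Y27632. The Y27632 libraries stood far below the other 6, which overlapped. Its log2 change was -0.62 ± 0.045 (limma adjusted p = 3.8e-07) with Y27632 and -0.029 ± 0.052 (limma adjusted p = 0.664) with blebbistatin, and the inhibitors differed by 0.60 ± 0.05 (edgeR adjusted p = 1.81e-07). Ankrd37, a sensitive HIF target with 21 to 50 reads per library here, measured 34.9, 55.2 and 45.4 in the DMSO libraries, 36.5, 43.3 and 48.8 with blebbistatin and 21.7, 28.2 and 22.5 with Y27632. The Y27632 libraries lay below the other 6, among which DMSO and blebbistatin overlapped. Its log2 change with Y27632 was -0.86 ± 0.23 (limma adjusted p = 0.00951), and the call was lost without DMSO replicate 2, the highest of the control libraries (-0.71, adjusted p = 0.0504). With blebbistatin it was -0.061 ± 0.21 (limma adjusted p = 0.833), and the inhibitors differed by 0.84 ± 0.22 (edgeR adjusted p = 0.00582).

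**Figure D3:**
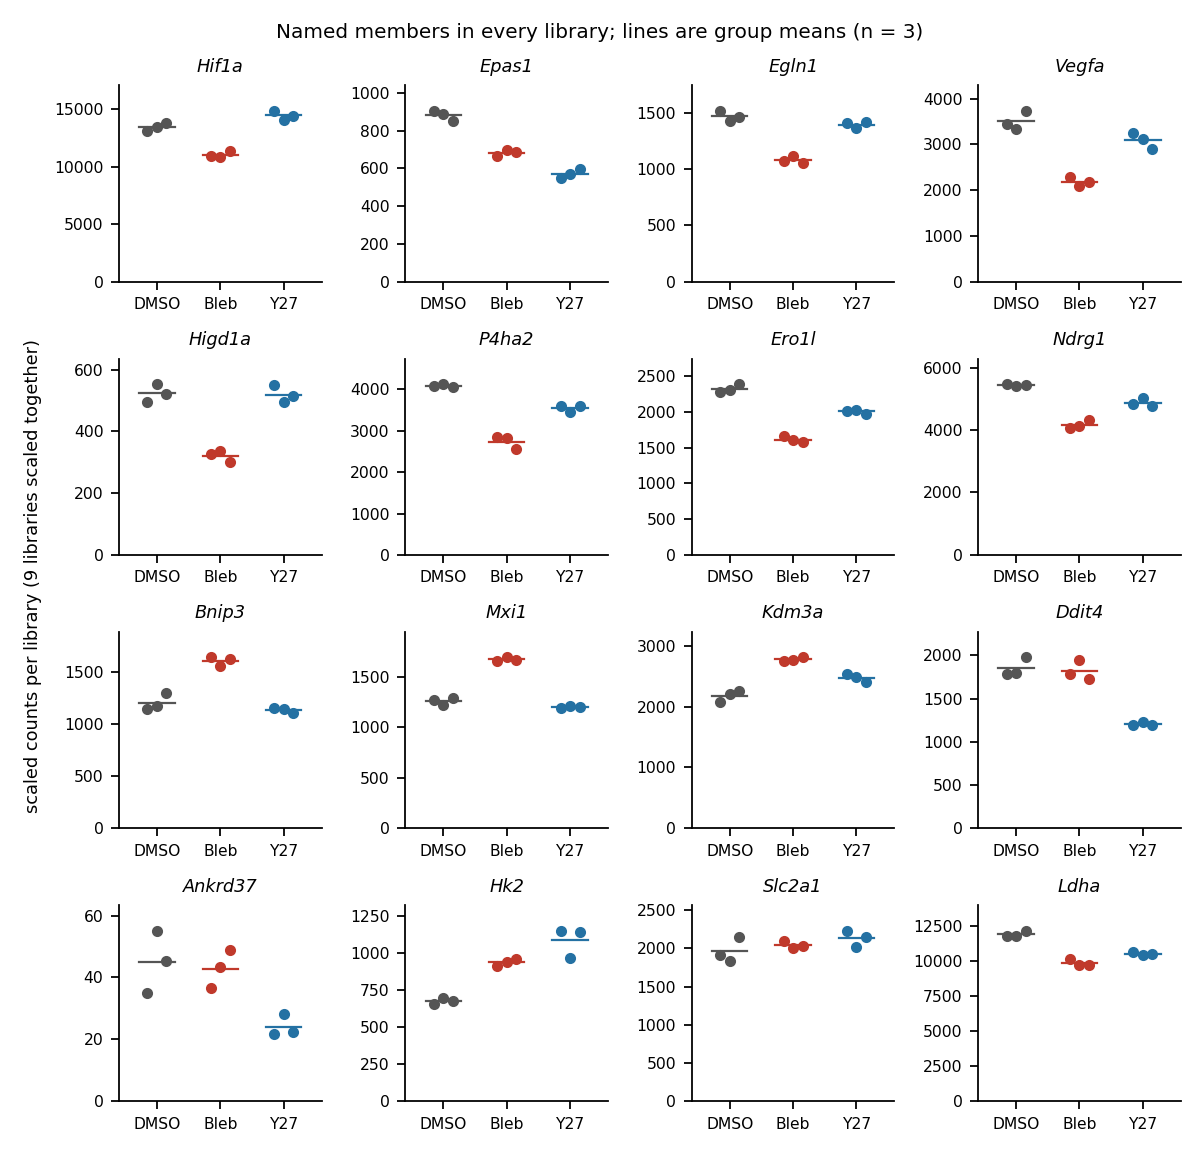
Scaled counts (vertical axes, each from 0) of 16 members in every RNA library, with DMSO in grey, blebbistatin in red and Y27632 in blue; each point is 1 library and each line a group mean of 3. Higd1a, Vegfa and P4ha2 are lowest with blebbistatin, Epas1, Ddit4 and Ankrd37 are lowest with Y27632, and Slc2a1 overlaps between groups.

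At the entry of glycolysis no member passed as lower with either inhibitor. Slc2a1 encodes GLUT1, the basal glucose transporter and a textbook HIF target. It measured 1917, 1840.3 and 2152 in the DMSO libraries, 2095, 2002 and 2034 with blebbistatin and 2233, 2016 and 2154 with Y27632, and the groups overlapped. Its log2 changes were 0.054 ± 0.053 (limma adjusted p = 0.425) and 0.12 ± 0.055 (limma adjusted p = 0.122). Without DMSO replicate 3, the highest control, both passed, at 0.12 (adjusted p = 0.0426) and 0.18 (adjusted p = 0.0114), so 1 control library decides whether Slc2a1 is called. Slc2a3 encodes GLUT3, a transporter of high affinity. Slc2a3 measured 157, 163 and 130 in the DMSO libraries, 213, 221 and 214 with blebbistatin and 155, 150.0 and 163 with Y27632. The blebbistatin libraries were above all others. The log2 change was 0.53 ± 0.11 (limma adjusted p = 0.0013) with blebbistatin and 0.058 ± 0.11 (limma adjusted p = 0.722) with Y27632, and the inhibitors differed by 0.48 ± 0.096 (edgeR adjusted p = 0.000697).

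Hk2, the inducible hexokinase that traps glucose in the cell, rose with both inhibitors. It measured 657, 698 and 677 in the DMSO libraries, 914, 939.5 and 958 with blebbistatin and 1152, 964 and 1143 with Y27632. All 6 treated libraries were above all 3 controls, and Y27632 replicate 2 lay closest to the blebbistatin range. The log2 changes were 0.47 ± 0.05 (limma adjusted p = 6.9e-06) with blebbistatin and 0.67 ± 0.066 (limma adjusted p = 5.58e-06) with Y27632, the largest rise of any member with Y27632. The difference between the inhibitors, -0.20 ± 0.062 (edgeR adjusted p = 0.0136), was lost without Y27632 replicate 1 (-0.16, adjusted p = 0.0594) or replicate 3 (-0.17, adjusted p = 0.0605). Hk1, the constitutive hexokinase, rose with blebbistatin, 0.23 ± 0.032 (limma adjusted p = 5.62e-05), and was -0.041 ± 0.034 (limma adjusted p = 0.384) with Y27632. Gpi1, glucose phosphate isomerase, rose slightly with blebbistatin, 0.11 ± 0.03 (limma adjusted p = 0.0106), a call lost without DMSO replicate 2 (0.087, adjusted p = 0.0591).

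The phosphofructokinase step, where flux is committed, held genes of opposite direction. Pfkl, Pfkm and Pfkp are the liver, muscle and platelet subunits of the enzyme, and Pfkfb3 and Pfkfb4 make and break its activator fructose 2,6-bisphosphate. Pfkfb4 fell most. It measured 777, 772 and 820.5 in the DMSO libraries, 521, 493 and 475 with blebbistatin and 703, 710.1 and 658 with Y27632, with 3 groups that did not overlap. Its log2 changes were -0.67 ± 0.058 (limma adjusted p = 9.3e-07) with blebbistatin and -0.20 ± 0.052 (limma adjusted p = 0.0105) with Y27632, a difference of -0.47 ± 0.054 (edgeR adjusted p = 5.77e-06).

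Pfkfb3 had the reverse order, with log2 changes of -0.18 ± 0.087 (limma adjusted p = 0.0973) with blebbistatin and -0.46 ± 0.076 (limma adjusted p = 0.000471) with Y27632. The blebbistatin change passed without DMSO replicate 1 (-0.25, adjusted p = 0.043) or blebbistatin replicate 3 (-0.26, adjusted p = 0.0262). The difference between the inhibitors, 0.29 ± 0.084 (edgeR adjusted p = 0.00988), was lost without blebbistatin replicate 3 (0.20, adjusted p = 0.0653). Among the subunits, Pfkl fell with both, -0.26 ± 0.048 (limma adjusted p = 0.00055) and -0.22 ± 0.039 (limma adjusted p = 0.000912). Pfkm rose with blebbistatin, 0.19 ± 0.038 (limma adjusted p = 0.00113), and was -0.053 ± 0.038 with Y27632. Pfkp fell with Y27632, -0.16 ± 0.038 (limma adjusted p = 0.00583), and was -0.04 ± 0.037 with blebbistatin.

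In lower glycolysis the changes were small. Eno1, the housekeeping enolase, fell with blebbistatin by 15.1%, -0.24 ± 0.033 (limma adjusted p = 6.83e-05), and Pgk1, the first ATP-yielding kinase, by 12.3%, -0.19 ± 0.028 (limma adjusted p = 0.000119). With Y27632 they were -0.066 ± 0.031 (limma adjusted p = 0.118) and -0.056 ± 0.028 (limma adjusted p = 0.143). Eno1 has a near copy, Eno1b, listed with 2 to 14 reads per library. The aldolases parted, as Aldoc fell with both inhibitors, -0.16 ± 0.042 (limma adjusted p = 0.00734) and -0.17 ± 0.036 (limma adjusted p = 0.00289), and Aldoa rose slightly with blebbistatin, 0.095 ± 0.029 (limma adjusted p = 0.0166). The Aldoa call was lost without DMSO replicate 2 (0.076, adjusted p = 0.0855) or blebbistatin replicate 1 (0.093, adjusted p = 0.059). Tpi1, Pgam1 and Pkm, which encode triose phosphate isomerase, phosphoglycerate mutase and pyruvate kinase, passed in no comparison. Their standard errors were 0.035 to 0.048, and their log2 changes ran from -0.067 to 0.048. Gapdh passed in none either, but its DMSO replicate 2 and blebbistatin replicate 2 stood at 144 and 231 scaled counts, while the other 7 libraries lay between 47.8 and 71.8.

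The 3 members that turn pyruvate to lactate, export it or keep pyruvate from the mitochondria fell with blebbistatin. Ldha, the lactate dehydrogenase subunit that HIF induces, measured 11814, 11774 and 12190.3 in the DMSO libraries, 10139, 9728 and 9699 with blebbistatin and 10658, 10419.6 and 10524 with Y27632. All treated libraries were below all controls. The log2 changes of Ldha were -0.28 ± 0.031 (limma adjusted p = 1.03e-05) with blebbistatin and -0.18 ± 0.028 (limma adjusted p = 0.000295) with Y27632. The difference between the inhibitors, -0.085 ± 0.029 (edgeR adjusted p = 0.0228), was lost without blebbistatin replicate 2 (-0.078, adjusted p = 0.0576) or Y27632 replicate 3 (-0.086, adjusted p = 0.0518). Slc16a3, the lactate exporter MCT4, fell with both, -0.46 ± 0.093 (limma adjusted p = 0.00122) and -0.33 ± 0.063 (limma adjusted p = 0.0014). Pdk1, the kinase that shuts pyruvate dehydrogenase, fell with blebbistatin, -0.27 ± 0.047 (limma adjusted p = 0.000452), and was -0.052 ± 0.043 (limma adjusted p = 0.38) with Y27632.

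Set directly against each other by edgeR on the reads of all 9 libraries, the inhibitors differed for 27 of 37 members, 13 higher and 14 lower with blebbistatin, which is 73% beside 53.1% of 14941 genes, of which 26.9% were higher and 26.2% lower. A difference of at least 0.5 on the log2 scale was found for 4 of them, Ankrd37, Ddit4, Bnip3 and Higd1a, beside 16.9% of all genes, and 28 members did not overlap between the inhibitors, beside 60.6%. Among genes with a mean of at least 50, 7340 of 12464 differed between the inhibitors. Of the 26 members called with blebbistatin, 23 also differed from Y27632, and the 3 that did not were Pfkl, Aldoc and Slc16a3. For those, the difference was -0.033 ± 0.043, 0.023 ± 0.04 and -0.11 ± 0.084 (log2 ± SE). Blebbistatin was below both DMSO and Y27632 for 13 members, among them Higd1a, Vegfa, Pfkfb4, Hif1a, P4ha2 and Egln1, and above both for 8, among them Bnip3, Mxi1 and Slc2a3. The compounds were used at different concentrations and act on different proteins, so a difference between them is one between these treatments.

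**Figure D4:**
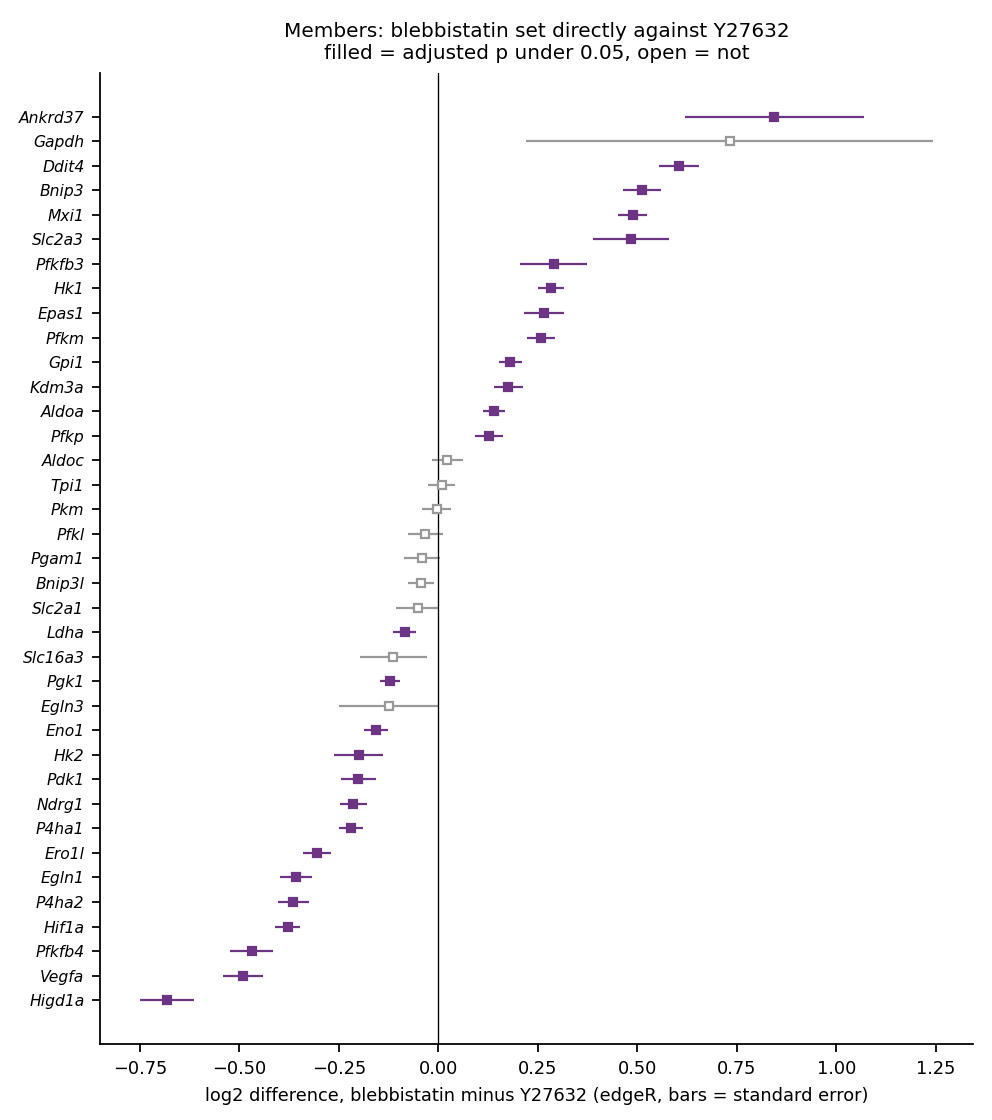
Log2 difference between blebbistatin and Y27632 (horizontal axis, positive where blebbistatin is higher) for the 37 members in order; squares are edgeR estimates from 3 libraries per group, bars are standard errors, and open squares have an adjusted p of 0.05 or more. Ankrd37, Ddit4, Bnip3 and Mxi1 lie at the high end and Higd1a, Vegfa and Pfkfb4 at the low end, while Gapdh has the widest bar.

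The wider pathways were followed in 90 further genes, of which 83 could be tested with blebbistatin and 82 with Y27632. With blebbistatin 20 rose and 33 fell, which is 63.9% called beside 53% of all genes (26.1% higher and 26.9% lower). With Y27632 13 rose and 23 fell, which is 43.9% beside 35.9% (18.1% higher and 17.8% lower). The pentose phosphate path gave 0 higher and 5 lower of 8 with blebbistatin, and 0 higher and 6 lower with Y27632. Other glycolytic isoforms and partners gave 7 higher and 9 lower of 24 with blebbistatin, and further lactate and pyruvate genes 4 higher and 7 lower of 17. Among the last, Ldhb, the other main lactate dehydrogenase subunit, and the kinases Pdk2 and Pdk4, named after their values were seen, rose with blebbistatin with log2 changes of 0.77, 0.30 and 0.77, against the direction of the members Ldha and Pdk1. The shares called in these groups were 62.5%, 66.7% and 64.7% with blebbistatin, beside 53% of all genes.

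The further HIF-inducible targets, 27 of them tested, gave 7 higher and 9 lower with blebbistatin and 8 higher and 5 lower with Y27632. These shares, 59.3% and 48.1%, stand beside the same 53% and 35.9% of all genes. Adm, which encodes the vasoactive peptide adrenomedullin, measured 20124, 20916 and 21437 normalised counts in DMSO and 3939.9, 4067 and 4081 with blebbistatin, a log2 change of -2.37 ± 0.033 (limma adjusted p = 2.97e-13). With Y27632 its log2 change was -0.078 ± 0.035 (limma adjusted p = 0.101). The secreted stanniocalcins Stc1 and Stc2 also fell with blebbistatin, with log2 changes of -1.43 ± 0.10 and -1.44 ± 0.081 (limma adjusted p = 1.51e-07 and 1.89e-08). Cited2, which competes with HIF for its coactivator, had -1.13 ± 0.057 (limma adjusted p = 7.04e-09).

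In the opposite direction, Hmox1, the haem-degrading oxygenase, measured 3768, 3678 and 3744 in DMSO and 9366, 9085 and 9428 with blebbistatin, a log2 change of 1.32 ± 0.03 (limma adjusted p = 1.09e-11). Angptl4, a lipase inhibitor, rose with blebbistatin, 1.57 ± 0.15 (limma adjusted p = 2.4e-06). Bhlhe41, a repressor of the clock and hypoxia systems, rose too, 1.06 ± 0.059 (limma adjusted p = 1.73e-08). No further gene passed with an absolute log2 change of 1 or more with Y27632. Between the inhibitors, 4 did, namely Adm (-2.28), Stc1 (-1.65), Hmox1 (1.41) and Angptl4 (1.28), each with an edgeR adjusted p of 0.000268 or less.

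**Figure D5:**
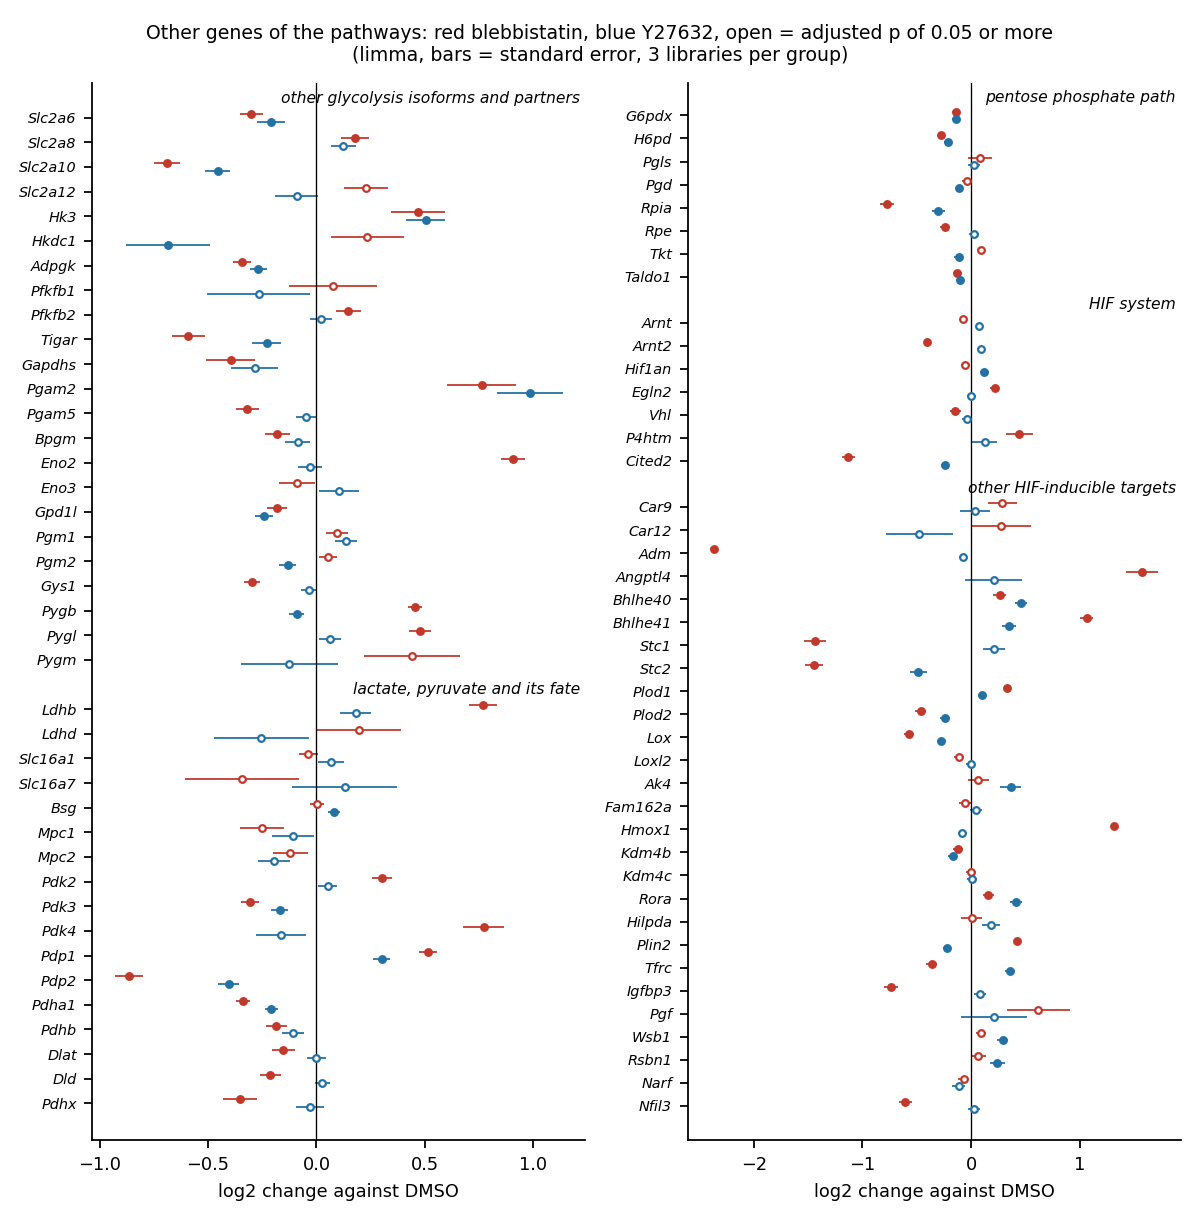
Log2 change against DMSO (horizontal axes, different ranges in the left and right panels) of the further pathway genes that could be tested with both inhibitors, blebbistatin in red and Y27632 in blue; points are limma estimates from 3 libraries per group, bars are standard errors, and open points have an adjusted p of 0.05 or more. Adm lies far to the left and Angptl4 and Hmox1 to the right with blebbistatin, while the Y27632 points stay nearer 0.

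Few listed chromatin sites were annotated to members. The authors' deposited table of ATAC sites that changed with blebbistatin lists 970 sites, and 0 of them are annotated to a member; their table for Y27632 lists 207 sites and 0 for members. The tables hold only sites with an FDR of at most 0.05, and those of the doxycycline experiment hold no absolute log2 fold under 1, so an unlisted site may still have changed by less. In the other experiment, without doxycycline, 3 of 1231 listed blebbistatin sites are annotated to members in the authors' deposited table. All 3 were lower, as were 99.0% of all sites in it. They are annotated to Egln1 (log2 fold -1.09, FDR 0.000856), Egln3 (log2 fold -1.14, FDR 0.0217) and P4ha1 (log2 fold -1.16, FDR 0.048). The annotation in the authors' deposited table puts them at -11.46 kb, 315 kb and -12.05 kb from the start of the gene, where a minus sign means upstream.

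The authors' deposited table for doxycycline without blebbistatin lists 19 of 7613 sites for 13 members, 18 higher and 1 lower with doxycycline, while 95.8% of all its sites were higher. Of these, 5 are annotated as promoter sites in that deposited table. The Egln1 promoter site at chr8:124948893-124949713 (mm10) covers the Egln1 sequence printed above, and the authors' deposited table gives it a log2 signal of 9.31 with doxycycline and 8.06 without, a log2 fold of 1.25 (FDR 7.54e-07). The other 4 in the authors' deposited table are at Aldoc (1.20), Hif1a (1.14), Pfkfb4 (1.03) and, at the lowest fold, Eno1. The 1 lower site in the authors' deposited table is intergenic, at -54.98 kb from the start of Ndrg1 (log2 fold -1.21).

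With doxycycline present, the authors' deposited table for blebbistatin lists 12 of 6346 sites for 7 members, all lower, as were 99.8% of all its sites. By gene there are 4 sites for Egln3, 3 for Hif1a, and 1 each for Egln1, Hk2, Ndrg1, Pfkm and Slc2a3. The authors' deposited table places the 4 Egln3 sites in introns of transcript NM_001370962, 198.1 to 315 kb from the Egln3 start. It also places Hif1a sites at -124.6 and -93.45 kb. The annotation gives the nearest start, and whether a site acts on that gene was not tested. At 3 of the 12 sites the same coordinates appear in the authors' deposited table for doxycycline. The authors' deposited table has the intergenic site at -5.225 kb from the start of Egln1 (chr8:124954408-124954549) higher with doxycycline by 1.34 and lower with blebbistatin by -1.61. In the authors' deposited tables a site in the first intron of Hk2 (chr6:82760985-82761188) has 1.28 and -1.44, and one annotated to Pfkm at -43.24 kb from its start (chr15:98049240-98049449) has 1.09 and -1.19. Both tables use the group with doxycycline and no blebbistatin, so a high value in that group gives both signs. The tables hold no values per library, so no error or test of these sites is given.

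Over both blebbistatin lists of that experiment, 8 members had a site annotated to them in the authors' deposited tables, up to 315 kb away. Every such site was lower. Of these members, RNA in the other experiment fell with blebbistatin for Egln1, Hif1a, Ndrg1 and P4ha1, rose for Hk2, Pfkm and Slc2a3, and did not pass for Egln3. In the authors' deposited table, 1 of the 3 Hif1a sites is annotated as a promoter site, at 0.023 kb from a start (log2 fold -1.08, FDR 0.000514). That site (chr12:73901240-73901453) is a different one from the Hif1a promoter site listed as higher with doxycycline (chr12:73907460-73908273). Nearly all sites of those lists were lower, as given above, and no test of the relation between RNA and sites was made.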

How the data were processed

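The expression tables hold, per gene and library, a signal that the authors deposited after scaling each library’s read counts by 1 factor, which differs between the tables, as the values themselves show: 100% were whole multiples of a step (tolerance 0.01 reads), and recovered DMSO reads were identical in both tables. Tool names in the submitters' processing notes are HISAT2, Picard, featureCounts, DESeq2, Bowtie2, SAMtools, MACS2, DiffBind and HOMER, with build mm10. The counting of shared reads and strand is not given in the sources used here. Log2 folds and FDRs of sites are the authors' deposited values, per the file headers, and site lists hold group means only. Log2 changes and adjusted p-values of genes come from the fits described below. Sample columns without a matching label numbered 0, and the 12 doxycycline libraries have no assay named in the labels.

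Genes with a mean of at least 10 were tested with limma 3.58.1 (R 4.3.3; trend, log2 of value + 1) over the 6 libraries of a table, and blebbistatin against Y27632 with edgeR 4.0.16 (quasi-likelihood, TMM) on recovered reads of 9 libraries. Benjamini-Hochberg adjustment ran over all genes tested, with calls at adjusted values below 0.05. A count test on the recovered reads, edgeR on the same 6 libraries, called 7924 genes with blebbistatin and 5354 with Y27632. Scripts were tested on simulated data. Every pair of replicates differed by more than counting noise (chi-square per degree of freedom 2.63 to 8.06). The column that the doxycycline list heads as blebbistatin without doxycycline was read as the group with neither drug, because at 13 shared sites its values differed from that group by a mean of -0.13 (SD 0.0044) and from the named group by 1.12 (SD 0.184). Members and lists were chosen with earlier results of these data known. A gene of the wider pathway list is not reported here and is left out of that list's counts. All 37 members are named; full statistics are given for members called with an absolute log2 change of at least 0.5, called in opposite directions, or fixed by name (Slc2a1, Hk2, Ldha, Hif1a, Epas1, Vegfa), and other pathway genes are named at 1 or more, with Arnt, Egln2, Vhl and Hif1an. Further member values and Eno1b were added for their roles. Alternatives were other pseudocounts, filters and scalings, edgeR or DESeq2 1.42.0 on recovered reads, a replicate block, and leaving out each library.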

Additional observations from a re-analysis of the deposited data

Results flagged for a closer look

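Hif1a is listed here because the inhibitors gave calls of opposite direction against the same DMSO libraries, and their direct difference passed a test. Blebbistatin minus Y27632 was -0.38 on the log2 scale by edgeR (adjusted p = 2.39e-07, SE 0.032), with 11037 ± 269 scaled counts with blebbistatin and 14462 ± 376 with Y27632 (mean ± SD, n = 3 each). Values for each inhibitor against DMSO, and the libraries on which the Y27632 call rests, are given with the results on Hif1a.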

How the results depend on the processing

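Of 225 recomputed counts and medians, 223 kept their direction and stayed within 1.5 times the value reported, or within the spread for medians. The exceptions were the median of members with Y27632, which ran from -0.0903 to -0.0538 when 1 library was left out (lowest without DMSO replicate 2), and the 3 listed sites of blebbistatin without doxycycline, of which 1 remained at an FDR of at most 0.01. The median with blebbistatin ran from -0.161 without blebbistatin replicate 3 to -0.0769 without blebbistatin replicate 1. Members called with blebbistatin numbered 7 to 10 higher and 17 to 18 lower over all alternatives, and those with Y27632 2 to 4 higher and 13 to 15 lower. Of the members called, 24 of 26, 15 of 18 and 24 of 27 (blebbistatin, Y27632, and the inhibitors compared) passed in every alternative, and none reversed. Reversals were limited to genes not called, and the cause was not tested. With blebbistatin, leaving out 1 library gave Gapdh from -0.577 to 0.642, Pkm from -0.0039 to 0.0552, Ankrd37 from -0.230 to 0.0934 and Ddit4 from -0.0743 to 0.0166. With Y27632 it gave Slc2a3 from -0.0432 to 0.121, Gapdh from -0.355 to 0.374, Pgam1 from -0.0399 to 0.0190, Egln3 from -0.111 to 0.158, Bnip3l from -0.0268 to 0.0111, Higd1a from -0.0510 to 0.0304 and Egln2 from -0.0277 to 0.0324, and Egln2 was -0.0043 by edgeR and -0.0022 by DESeq2. Between the inhibitors it gave Pfkl from -0.0737 to 0.0013, Aldoc from -0.0210 to 0.0475, Tpi1 from -0.0190 to 0.0200, Gapdh from -0.471 to 1.09 and Pkm from -0.0333 to 0.0237, and Tpi1 was -0.0032 by limma and -0.0030 with no filter, and Pkm 0.00090 at a mean of at least 50. Gapdh passed between the inhibitors only with no filter (log2 0.73, adjusted p = 1.32e-05).

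Libraries with the same replicate number did not deviate together (correlations of -0.086 to 0.048 over 14941 genes) and were not treated as pairs; the labels do not say whether they share a culture or animal. A replicate block left 9 higher and 18 lower members with blebbistatin (Pfkfb3 added, adjusted p = 0.0479) and 2 higher and 14 lower with Y27632 (Hif1a at 0.0555 and P4ha1 at 0.0592 were lost). Depth limits Ankrd37 (21 to 50 reads), Gapdh and Egln3; site values carry no error.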
